A study of Homo sapiens with 12 samples.

Results

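The genes described here are 10 negative feedback regulators of ERK signalling: the phosphatase genes DUSP4, DUSP5, DUSP6 and DUSP7, the Sprouty genes SPRY1, SPRY2 and SPRY4, the Sprouty-related genes SPRED1 and SPRED2, and PHLDA1. They were chosen by name, with earlier results of these data known, and all 10 were found among the 33694 human gene identifiers listed. RNA came from A375, an established human melanoma cell line that carries mutant BRAF, and from A375-BIR, which the labels name as its BRAF-inhibitor-resistant form; how A375-BIR was derived, and whether it is a clone, is not given in the sources used here. Both lines grew in RPMI with 10% serum. The groups were A375 with DMSO, A375 with dabrafenib, A375-BIR with DMSO and A375-BIR with dabrafenib, with the BRAF kinase inhibitor at 200 nM, its DMSO control at 0.1% and a treatment of 48 h.

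ERK is the last kinase of the RAS, RAF and MEK cascade, which mutant BRAF keeps active in many melanomas. ERK induces the transcription of its own inhibitors. DUSP proteins remove phosphate from ERK, with DUSP6 and DUSP7 in the cytoplasm and DUSP4 and DUSP5 in the nucleus. Sproutys act upstream, between receptor tyrosine kinases and RAF, and Spreds bring the RAS inhibitor neurofibromin to the membrane. PHLDA1 is a pleckstrin-homology-like protein whose transcript is often used, with those of DUSP6 and SPRY4, as a readout of ERK output.

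Each group was labelled with 3 biological replicates, but the files of A375 DMSO replicates 2 and 3 list mouse genes and were not analysed here. A375 with DMSO is therefore 1 library (n = 1, no SD), and it takes its spread in each test from the other groups. Its file also carries another stamp in its name than the 9 files of the other groups, so wherever it is used the stamp and the group cannot be told apart. Totals per library ran from 198690 to 1999840 gene counts. Reads outside genes made up 20.1% of that library's reads and 28.6% to 30.9% in the other 9, and mitochondrially encoded genes took 15.1% of its gene counts, 10.7% to 15.1% in A375 with dabrafenib and 4.63% to 7.21% in A375-BIR; their part in the results was not tested. Summed levels of 9 melanocytic markers ran from 2234 to 3677 CPM in A375 libraries and from 215 to 336 CPM in A375-BIR libraries, with MLANA at 0 in 9 of 10 libraries. Summed markers of leukocytes reached 2.54 CPM, of endothelium 4.40, of epithelium 28.2 and of fibroblasts 30.9 CPM in any library.

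Levels are CPM, a gene's count over the TMM-scaled total of its library brought to a common total, given as mean ± SD over 3 libraries. A log2 change is the edgeR estimate ± its approximate standard error, and a gene was called when its Benjamini-Hochberg adjusted p, over the 10236 genes tested, was under 0.05. In bulk RNA, fewer cells making a transcript and less of it per cell cannot be told apart.

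Within A375-BIR, the fitted log2 changes with dabrafenib ran from -0.86 for DUSP5 to 0.73 for SPRED2. Of the 10, DUSP5 was called lower and none was called higher, where 1.1% of all genes tested were called lower, 1.36% higher and 2.46% in either direction. The median log2 change of the 10 was -0.21, against 0.02 over all genes. Counts differed more between replicates of A375-BIR with dabrafenib (chi-square per degree of freedom 4.26 to 4.89 by pair) than with DMSO (1.29 to 1.74). The part of that spread in the number of calls was not tested. In A375 the same treatment went with 5 lower genes, SPRY4, SPRY1, DUSP6, PHLDA1 and DUSP4, and 1 higher, DUSP7, but there 20.7% of all genes were called lower, 17.9% higher and 38.6% in either direction. SPRY1 was tested only because it is high in the A375 DMSO library, so its call there is no independent one. DUSP7 was tested only through dabrafenib libraries where it is high, so its call leans on the filter as well. The median was -0.58, against 0.00 over all genes. With dabrafenib in both lines, DUSP6 and DUSP5 were higher in A375-BIR and DUSP4, SPRY2, SPRED1 and PHLDA1 were lower, where 22.6% of all genes were called higher, 20.2% lower and 42.7% in either direction. The response of A375, the comparison of the lines in DMSO and the difference between the responses share the single A375 DMSO library. They also moved with the scaling: on unscaled library totals the share of called genes that were higher was 63.3% in place of 46.4% in A375, 69.1% in place of 48.5% between the lines in DMSO and 34.3% in place of 56.3% in the difference. Between the lines under dabrafenib that share moved too, to 60.5% in place of 52.8%. On unscaled totals the 10 genes split into 1 higher and 4 lower in A375 and into 3 higher and 5 lower in DMSO.

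**Figure D1:**
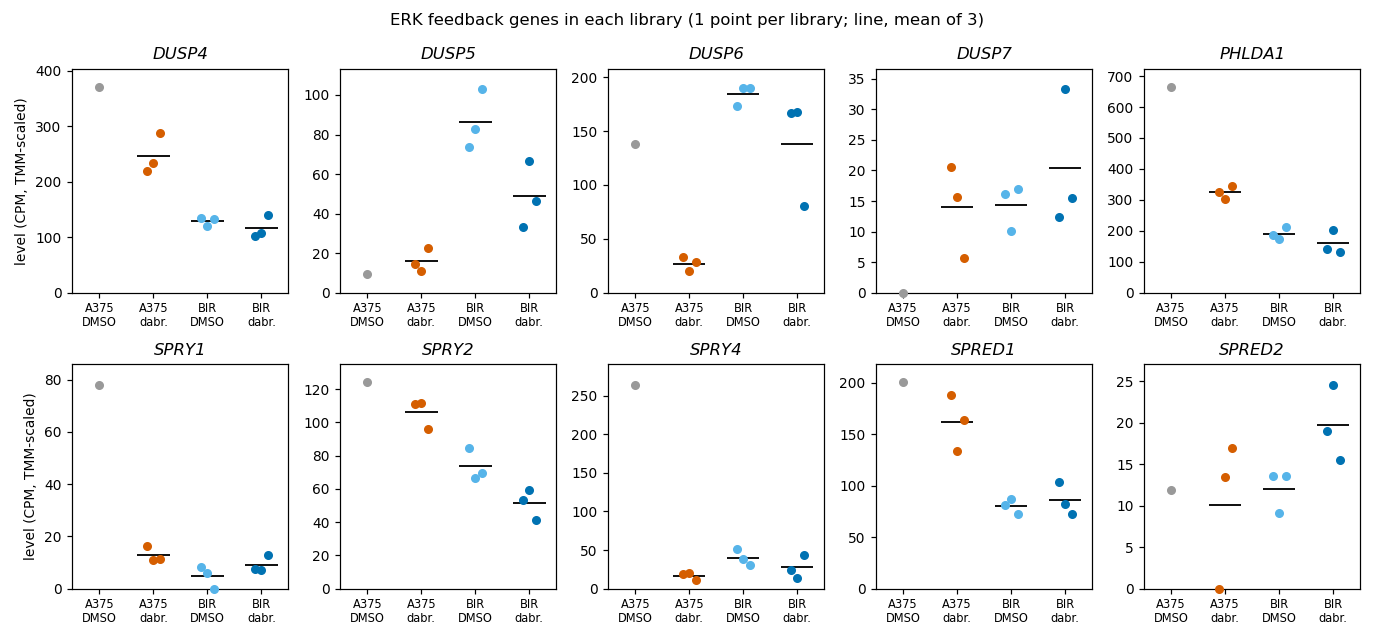
Level of each gene (vertical axis, CPM on TMM-scaled totals, from 0) in the 10 human libraries, 1 point per library, by line and treatment, with a line at the mean of 3. DUSP6 sits at 20.1 to 33.0 CPM in A375 with dabrafenib and at 80.2 CPM or more elsewhere, while SPRY4 and SPRY1 are high in the A375 DMSO library alone.

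DUSP6, the cytoplasmic ERK-specific phosphatase (chromosome 12, 89347232 to 89353271, hg38), stood at 138 CPM in the A375 DMSO library. With dabrafenib the A375 libraries held 33.0, 20.1 and 28.2 CPM (27.1 ± 6.53, n = 3), and all 3 lay below the DMSO library. The log2 change was -2.35 ± 0.33 (edgeR adjusted p = 7.44e-07). The A375-BIR libraries held 174, 189.5 and 189.6 CPM with DMSO (184 ± 9.14) and 167, 168 and 80.2 CPM with dabrafenib (138 ± 50.3). Here the groups did not overlap, but the first 2 treated libraries lay just under the controls and only the third lay far below. The change, -0.36 ± 0.19, was not called (adjusted p = 0.401), and it was -0.13 without A375-BIR dabrafenib replicate 3. That library had the lowest share of reads on genes of the 10, 20.4%, and its part in the change was not tested. Under dabrafenib DUSP6 was higher in A375-BIR than in A375 by 2.40 ± 0.29 (adjusted p = 1.56e-08), whereas the lines in DMSO did not differ beyond the spread (0.41 ± 0.25, adjusted p = 0.172); on unscaled library totals that last difference was called, at 0.81. DUSP6 was thus highest in A375-BIR with DMSO, followed by A375-BIR with dabrafenib and A375 with DMSO, neither of which differed from it beyond the spread, and lowest in A375 with dabrafenib.

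DUSP4, an inducible nuclear phosphatase (chromosome 8, 29333064 to 29350668), had the reverse order between the lines. The A375 DMSO library held 371 CPM and the A375 dabrafenib libraries 219, 234 and 288 CPM (247 ± 36.2). In A375-BIR there were 134, 121 and 134 CPM with DMSO (129.5 ± 7.42) and 103, 108 and 139.7 CPM with dabrafenib (117 ± 19.9). Every A375 library lay above every A375-BIR library. DUSP4 was lower in A375-BIR by 1.08 on the log2 scale under dabrafenib (-1.08 ± 0.19, adjusted p = 1.36e-05) and in DMSO (-1.52 ± 0.21, adjusted p = 1.31e-07). Its change in A375-BIR was not called (-0.18 ± 0.18, adjusted p = 0.728). Its change in A375 was called at -0.62 ± 0.22 (adjusted p = 0.0218), a call that ended without A375 dabrafenib replicate 1 (-0.54) or 2 (-0.59), by DESeq2 (-0.61, adjusted p = 0.089), among genes averaging at least 50 counts (-0.49, adjusted p = 0.0534) and on unscaled totals (-0.36, adjusted p = 0.192).

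DUSP5, the nuclear ERK-specific phosphatase (chromosome 10, 110497838 to 110511544), was higher in the resistant line under either treatment. The A375 DMSO library held 9.42 CPM and the A375 dabrafenib libraries 14.4, 11.2 and 22.6 CPM (16.1 ± 5.87), from 4 to 15 counts each. The A375-BIR libraries held 73.7, 82.7 and 103 CPM with DMSO (86.5 ± 15.2) and 33.3, 66.5 and 46.6 CPM with dabrafenib (48.8 ± 16.7). All A375-BIR libraries lay above all A375 libraries, and all treated A375-BIR libraries lay below the untreated ones. DUSP5 was higher in A375-BIR by 3.15 ± 0.39 in DMSO (adjusted p = 2.45e-08) and by 1.68 ± 0.39 under dabrafenib (adjusted p = 0.000623). Its fall in A375-BIR, -0.86 ± 0.24 (adjusted p = 0.0391), was called in the fit over all 10 libraries. The call ended without any A375-BIR DMSO replicate, without A375-BIR dabrafenib replicate 1 and without A375 dabrafenib replicate 1 or 2 (-0.97 to -0.54, adjusted p = 0.057 to 0.296). It also ended by DESeq2 (-0.83, adjusted p = 0.263) and with only these 6 libraries fitted (-0.84, adjusted p = 0.114). In A375 it was not called (0.61 ± 0.56, adjusted p = 0.412).

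DUSP7, a cytoplasmic relative of DUSP6 (chromosome 3, 52048919 to 52056550), had 0 counts in the A375 DMSO library, the deepest of the 10, which allows up to 1.88 CPM at 3 counts. The A375 dabrafenib libraries held 20.6, 15.6 and 5.64 CPM from 10, 7 and 1 counts. In A375-BIR the levels were 16.1, 10.1 and 16.9 CPM with DMSO (14.4 ± 3.74) and 12.4, 33.2 and 15.5 CPM with dabrafenib (20.4 ± 11.2). The 3 replicated groups overlapped, and the 1 library of the other stamp stood apart below them. Against 3 counts in that library, DUSP7 was at least 7.41-fold higher in A375 with dabrafenib by the mean of the 3 levels and 8.61-fold by their 18 pooled counts. In A375-BIR with DMSO it was at least 7.63-fold higher by the mean and 7.49-fold by the 39 pooled counts. The edgeR calls of DUSP7 in these comparisons belong to fitted log2 changes of 6.60 and 6.42. Those fits depend on the 0 counts and do not test the limits. These limits take no counting error of the higher group. At the pooled level of the other 9 libraries, 16.2 CPM, that library would hold 25.7 counts, and 70 of the 8112 tested genes with at least that pooled level had 0 counts there (0.863%). Within the other 9 libraries DUSP7 was not called, either for dabrafenib in A375-BIR (0.45 ± 0.40, adjusted p = 0.678) or between the lines under dabrafenib (0.27 ± 0.48, adjusted p = 0.676). DUSP7 passed the filter on low counts only through A375 dabrafenib replicate 1 and A375-BIR dabrafenib replicate 2, where it is high. Its being tested thus leaned on treated libraries.

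SPRY4 (chromosome 5, 142310427 to 142326455), a Sprouty that restrains RAS activation by receptor kinases, had the largest fall of the 10 in A375. The A375 DMSO library held 264 CPM from 420 counts. The A375 dabrafenib libraries held 18.6, 20.1 and 11.3 CPM (16.6 ± 4.70), from 9, 9 and 2 counts, all far below it. The change was -3.87 ± 0.33 (adjusted p = 2.48e-11). Levels in A375-BIR were 50.8, 38.3 and 30.5 CPM with DMSO (39.9 ± 10.3) and 24.8, 14.0 and 44.0 CPM with dabrafenib (27.6 ± 15.2). These groups overlapped, and the change was not called (-0.68 ± 0.29, adjusted p = 0.252). SPRY4 was lower in A375-BIR than in A375 in DMSO (-2.67 ± 0.25, adjusted p = 3.73e-11), while under dabrafenib the lines overlapped (0.51 ± 0.42, adjusted p = 0.329). SPRY4 was thus high in 1 library and at 11.3 to 50.8 CPM in the 9 others.

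SPRY1 (chromosome 4, 123396795 to 123403760) showed the same arrangement at lower counts. The A375 DMSO library held 77.9 CPM from 124 counts, and the A375 dabrafenib libraries 16.5, 11.2 and 11.3 CPM (13.0 ± 3.05) from 8, 5 and 2 counts. The A375-BIR libraries held 8.47, 6.05 and 0 CPM with DMSO, where 0 counts in the third allow up to 5.08 CPM, and 7.62, 7.00 and 12.9 CPM with dabrafenib (9.18 ± 3.27). SPRY1 passed the filter on low counts only through the A375 DMSO library, where it was high, so that a difference from that library was built into its being tested. It was lower in A375 with dabrafenib (-2.52 ± 0.42, adjusted p = 1.07e-05) and in A375-BIR with DMSO (-3.73 ± 0.39, adjusted p = 5.25e-10) than in that library. Between the lines under dabrafenib (-0.65 ± 0.56, adjusted p = 0.359) and within A375-BIR (0.56 ± 0.54, adjusted p = 0.706) it was not called.

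SPRY2 (chromosome 13, 80335976 to 80340951) differed between the lines and was called in neither drug response. The A375 libraries held 124 CPM with DMSO and 111, 112 and 95.9 CPM with dabrafenib (106 ± 8.99), a change of -0.20 ± 0.25 that was not called (adjusted p = 0.553) and had the opposite sign on unscaled totals (0.07). A375-BIR had 84.7, 66.5 and 69.4 CPM with DMSO (73.6 ± 9.79) and 53.3, 59.5 and 41.4 CPM with dabrafenib (51.4 ± 9.19). These did not overlap, but the change was not called (-0.50 ± 0.21, adjusted p = 0.245). SPRY2 was lower in A375-BIR under dabrafenib (-1.04 ± 0.23, adjusted p = 0.000308) and in DMSO (-0.74 ± 0.23, adjusted p = 0.00729). The call in DMSO ended by DESeq2 (adjusted p = 0.0594) and on unscaled totals (-0.34, adjusted p = 0.248).

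The windows before the starts of SPRY1 and SPRY2 are shown as examples. In A375 with dabrafenib SPRY1 was called lower and SPRY2 was not. SPRY1 was tested only because it is high in the single A375 DMSO library, so its call there is no independent one. Of the other genes with a window, SPRY4, DUSP6 and PHLDA1 were called lower there too and DUSP7 higher. Each window is the 250 bases before the RefSeq start (GRCh38.p14), read on the gene's strand. Capitals mark CGGAA, the core of ETS factor sites, on either strand. SPRY1 is at chr4:123396545-123396794 on the plus strand and SPRY2 at chr13:80341127-80341376 on the minus strand.
SPRY1: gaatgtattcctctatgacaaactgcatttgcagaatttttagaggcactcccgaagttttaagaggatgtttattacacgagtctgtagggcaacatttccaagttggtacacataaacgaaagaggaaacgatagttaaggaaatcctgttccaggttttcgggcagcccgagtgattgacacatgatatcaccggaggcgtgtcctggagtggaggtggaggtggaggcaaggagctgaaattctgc
SPRY2: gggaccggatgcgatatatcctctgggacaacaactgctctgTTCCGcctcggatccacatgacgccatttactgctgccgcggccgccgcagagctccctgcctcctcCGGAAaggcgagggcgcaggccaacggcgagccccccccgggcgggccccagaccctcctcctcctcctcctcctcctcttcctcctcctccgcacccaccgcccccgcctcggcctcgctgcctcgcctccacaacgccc
The SPRY1 window held no CGGAA and the SPRY2 window held 2, at 208 and 141 bases before the start. Of the 8 members with a RefSeq window, DUSP6 held 3 matches and PHLDA1 held 2, and DUSP7, SPRY4, SPRED1 and SPRED2 held none; 30.3% of 35114 windows of this length hold at least 1. The windows of DUSP6, PHLDA1 and SPRED1 lie wholly within annotated exons (250 of 250 bases), inside the gene spans given here, and those of SPRY4 and SPRED2 in part (170 and 38 bases). The longer ETS site CCGGAAG, which contains that core (8.52% of windows), the AP-1 site TGANTCA (6.57%) and the cyclic AMP response element TGACGTCA (1.65%), searched on both strands, were in none of the 8 windows. DUSP4 and DUSP5 have no entry. A match is a description of the letters, not of binding.

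SPRED1 (chromosome 15, 38252326 to 38357249), a neurofibromin-binding inhibitor of RAS, was higher in the parental line under either treatment. The A375 libraries held 201 CPM with DMSO and 188, 134 and 164 CPM with dabrafenib (162 ± 26.9). The A375-BIR libraries held 81.3, 86.7 and 72.8 CPM with DMSO (80.3 ± 7.01) and 104, 82.2 and 72.5 CPM with dabrafenib (86.2 ± 16.02). All A375 libraries lay above all A375-BIR libraries, and the treated and untreated A375-BIR libraries overlapped. SPRED1 was lower in A375-BIR under dabrafenib (-0.86 ± 0.20, adjusted p = 0.000768) and in DMSO (-1.31 ± 0.22, adjusted p = 7.82e-06), and it was called in neither drug response (-0.31 ± 0.24 in A375, adjusted p = 0.306; 0.14 ± 0.20 in A375-BIR, adjusted p = 0.83).

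SPRED2 (chromosome 2, 65310851 to 65432637) was called in none of the 5 comparisons. Its libraries held 0 to 20 counts. The A375 libraries held 11.9 CPM with DMSO and 0, 13.4 and 16.9 CPM with dabrafenib, the 0 allowing up to 6.19 CPM. Those of A375-BIR held 13.6, 9.07 and 13.5 CPM with DMSO (12.1 ± 2.59) and 19.04, 24.5 and 15.5 CPM with dabrafenib (19.7 ± 4.52). The treated A375-BIR libraries lay above the untreated ones, at a change of 0.73 ± 0.42 that was not called (adjusted p = 0.445). SPRED2 passed the filter on low counts only through A375-BIR dabrafenib replicates 1 and 2, where it is high. A higher level in that group was thus built into its being tested. Under dabrafenib the lines overlapped (1.26 ± 0.57, adjusted p = 0.0714), and the difference was called without A375 dabrafenib replicate 2 (2.06, adjusted p = 0.0436) and on unscaled totals (1.38, adjusted p = 0.0456).

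PHLDA1 (chromosome 12, 76025447 to 76033932) resembled DUSP4. The A375 libraries held 663 CPM with DMSO and 326, 304 and 344 CPM with dabrafenib (324 ± 20.3). In A375-BIR the values were 186, 174 and 212 CPM with DMSO (191 ± 18.99) and 143, 203 and 132 CPM with dabrafenib (159 ± 38.2). The A375 libraries lay above all A375-BIR libraries, and A375 with DMSO lay highest. PHLDA1 was lower with dabrafenib in A375 (-1.04 ± 0.22, adjusted p = 0.000225), and lower in A375-BIR than in A375 both under dabrafenib (-1.01 ± 0.18, adjusted p = 2.36e-05) and in DMSO (-1.80 ± 0.21, adjusted p = 4.03e-09). In A375-BIR its change was not called (-0.25 ± 0.18, adjusted p = 0.574).

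**Figure D2:**
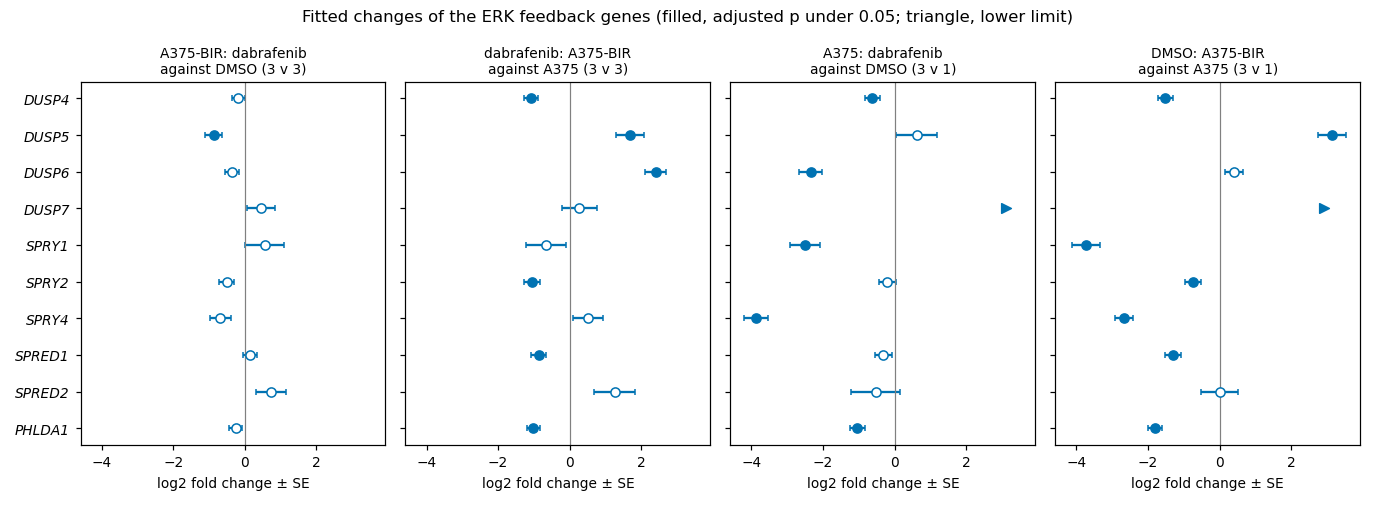
Fitted log2 fold change ± standard error (horizontal axis) of the 10 genes (vertical axis) in 4 comparisons; filled points were called, and a triangle is a lower limit from pooled counts against 3 counts. In A375-BIR only DUSP5 is filled (-0.86). Of the filled points under dabrafenib, DUSP5 and DUSP6 lie to the right and DUSP4, SPRY2, SPRED1 and PHLDA1 to the left.

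The comparisons were then read over the 10 genes. In A375-BIR, 3 of 10 had treated libraries all below the untreated (DUSP5, DUSP6 and SPRY2) and 1 all above (SPRED2), where 8.91% and 9.07% of all genes did so. SPRED2 was tested only through treated A375-BIR libraries, where it is high, so it is no independent count. By DESeq2 0 of 10 were called there, with 1 at an unadjusted p under 0.05, where 8.03% of all genes were, and edgeR had 3 at that level, all lower, where 14.2% of all genes were. In A375, 7 of 10 had treated libraries all below the single control and 2 all above, where 38% and 34% of all genes did so. Under dabrafenib, 4 of 10 had A375-BIR libraries all below those of A375 and 2 all above, against 22.7% and 25.5% of all genes. In DMSO, 6 of 10 were lower in A375-BIR (SPRY1, SPRY4, PHLDA1, DUSP4, SPRED1 and SPRY2) and 2 higher (DUSP5 and DUSP7), where 26.7% of all genes were called lower, 25.1% higher and 51.8% in either direction; 6 lay below the A375 library in every A375-BIR library and 3 above it, against 42.6% and 41.8% of all genes. SPRY1 is among the lower genes in A375 and in DMSO, but it was tested only through the A375 DMSO library, where it is high. DUSP7, among the higher ones, was tested only through dabrafenib libraries where it is high. The difference between the responses was called for 5 of 10, where 22.6% of all genes were called, 12.7% positive and 9.87% negative. It was positive for SPRY4 (3.19 ± 0.48, adjusted p = 9.29e-06), SPRY1, DUSP6 (1.99 ± 0.39, adjusted p = 0.000334) and PHLDA1, and negative for DUSP7; SPRY1 was tested only because it is high in the A375 DMSO library. For the other 5, DUSP4, DUSP5, SPRY2, SPRED1 and SPRED2, it was not called. On unscaled totals the split was 3 positive and 2 negative, DUSP5 being called (-1.75) and PHLDA1 not (0.51).

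Over the 10 libraries the log2 levels of DUSP4 and PHLDA1 had the highest Pearson correlation of any pair of the 10 (r = 0.92), and DUSP5 and SPRED1 the lowest (r = -0.90). DUSP6 and SPRY4, both high in A375 with DMSO and low with dabrafenib, had r = 0.42. These are descriptions over libraries that share lines and groups. Among 4235 other genes of at least 50 CPM, the highest correlations with DUSP6 were those of CMTM7 (r = 0.98), YWHAE (0.98) and CCT7 (0.98). CMTM7 went from 89.2 CPM in A375 with DMSO to 14.2 ± 2.89 with dabrafenib and stood at 139 ± 8.93 and 91.8 ± 14.8 CPM in A375-BIR. With SPRY2 they were SELENOS (0.97), COPB2 (0.96) and PINK1 (0.95), and with SPRY4 ATOX1 (0.97), SF3B2 (0.96) and TGOLN2 (0.95). Like SPRY4, these last 3 genes were highest in the single A375 DMSO library. ATOX1 stood at 1012 CPM there and at means of 47.0 to 113 CPM in the other groups.

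Other genes of the pathway were counted in fixed lists. Of all genes tested, 17.9% were called higher and 20.7% lower in A375 with dabrafenib. In A375-BIR those shares were 1.36% and 1.1%. Of 13 tested ERK-induced transcripts other than the 10, 11 were lower and 2 higher in A375 with dabrafenib (median -2.27), and 2 were lower and none higher in A375-BIR (median -0.24). The transcription factor gene ETV4 stood at 136 CPM in A375 with DMSO and 4.29 ± 3.73 CPM with dabrafenib (log2 change -4.62), and at 71.9 ± 8.18 and 38.9 ± 9.46 CPM in A375-BIR (-0.86, adjusted p = 0.0355). IER3, an immediate early gene, was the other called there (-0.70, adjusted p = 0.0314). Of 10 tested other MAPK phosphatases and paralogs, 4 were higher and 2 lower in A375 with dabrafenib (median 0.92), and in A375-BIR edgeR called 0 of 10, with 1 at an unadjusted p under 0.05 and a lowest adjusted p of 0.15. DUSP10, which acts mainly on JNK and p38, went from 16.3 to 71.1 ± 3.28 CPM in A375 (2.13 ± 0.38) and DUSP14 from 32.7 to 122 ± 3.68 CPM (1.91 ± 0.30), while PHLDA2, the paralog of PHLDA1, fell by 3.84, from 248.7 to 19.5 ± 8.04 CPM. DUSP10 and DUSP14 were thus higher in A375 with dabrafenib than in the single A375 DMSO library, and DUSP6 and DUSP4 were lower. The lower level of DUSP4 was not called by DESeq2 (-0.61) or on unscaled totals (-0.36). All A375 changes of these lists rest on that library, whose stamp and group cannot be told apart. Of 14 other negative regulators of RAS and ERK, 1 was higher, RAPGEF1, and 3 lower in A375, CBL, PPP2CA and PPP2R1A. Of 17 components from RAS to ERK, 4 were higher and 4 lower in A375. The counts of the 17 lay near the shares over all genes in A375. In A375-BIR edgeR called 0 of these 14 and 0 of these 17, with 0 of either list at an unadjusted p under 0.05.

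**Figure D3:**
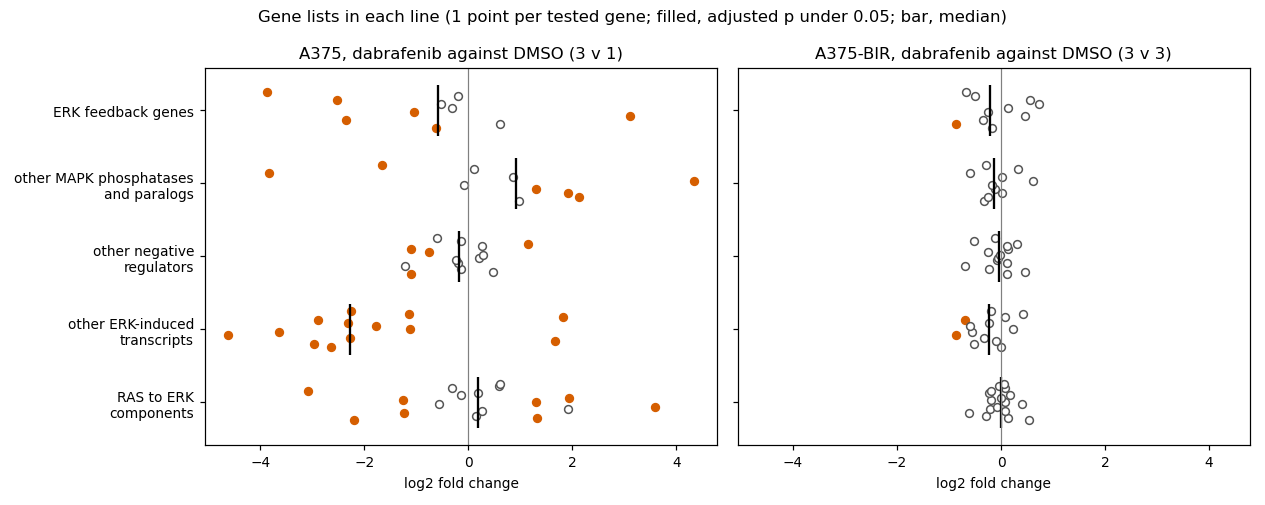
Log2 fold change with dabrafenib (horizontal axis) of each tested gene of 5 lists (vertical axis), in A375 on the left and A375-BIR on the right, with a bar at the median; filled points were called, and DUSP7 in A375 is at its lower limit. In A375 the medians of the ERK feedback genes and of the other ERK-induced transcripts are -0.58 and -2.27, and in A375-BIR they are -0.21 and -0.24.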

How the data were processed

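RNA of 12 labelled libraries was sequenced as QuantSeq 3' FWD tags, single-end, per the labels' protocols. The authors deposited raw read counts per gene, 1 file per library; the build is hg38 per the submitters' processing notes, and no source used here gives the aligner, annotation or strand setting. Of the files, 2 list mouse identifiers and were left out, which left 10. Closing lines for reads on no gene were left out of totals. Symbols were found for 32807 of 33694 identifiers, and positions come from GENCODE 29. Without that setting, reads of a gene and of its antisense partner cannot be told apart: the partner of SPRY4, SPRY4-AS1, had 14 counts in all against 607, those of PHLDA1 had 28 and 0 against 2246, and that of DUSP6 had 0.

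Genes were kept by filterByExpr (minimum count 10, in 1 library, the smallest group), which left 10236 and all 10 members; without the A375 DMSO library it left 8736 genes and 7 members, not DUSP7, SPRY1 or SPRED2. TMM scaling and a quasi-likelihood fit followed in edgeR 4.0.16 under R 4.3.3 (robust, 1 coefficient per group, 6 residual degrees of freedom, common biological coefficient of variation 0.136). Standard errors are approximate, taken as |log2 change|/√F. The procedure was tested on simulated data. Alternatives were RLE scaling, DESeq2 1.42.0, no filter or a mean count of at least 50, fits on fewer groups, a replicate block, each library left out, and, chosen after seeing the data, unscaled totals. Limits at 0 counts use 3 counts and cover counting error only. The labels say biological replicates and nothing of separate cultures, so p-values measure the spread between these libraries. All 10 members are named, plus up to 4 genes per list with the smallest p in a comparison and the 3 genes most like DUSP6, SPRY2 and SPRY4 (log2 CPM, prior count 2, mean of at least 50 CPM). The members and lists were chosen with earlier results of these data known.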

Additional observations from a re-analysis of the deposited data

Results flagged for a closer look

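The difference between the dabrafenib responses of A375-BIR and A375 was tested for each of the 10 genes as an interaction in edgeR and was called for 5. It was 3.19 for SPRY4, 3.08 for SPRY1 (± 0.71, adjusted p = 0.00194), 1.99 for DUSP6 and 0.79 for PHLDA1 (± 0.28, adjusted p = 0.0401) on the log2 scale. For DUSP7 the fitted difference was -6.15 (± 1.48, adjusted p = 0.00271); it depends on the 0 counts of the A375 DMSO library and is no bound. SPRY1 passed the filter on low counts only through that library, where it is high, so its difference was built into its being tested. All 5 rest on that 1 library. The call of PHLDA1 ended without A375-BIR DMSO replicate 1 (0.77) or 2 (0.73), A375-BIR dabrafenib replicate 2 (0.59) or A375 dabrafenib replicate 1 (0.80) or 2 (0.73), by DESeq2 (0.80), among genes averaging at least 50 counts (0.69) and on unscaled totals (0.51). The difference for DUSP5 was called only without A375-BIR dabrafenib replicate 2 (-1.79) and on unscaled totals (-1.75), among all alternatives tried.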

How the results depend on the processing

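The number of the 10 genes called in A375-BIR, 1, was 0 by DESeq2, 0 with only its groups fitted, which tests 9 of the 10, and 0 to 1 without single libraries. Genes averaging at least 50 counts include 6 of the 10, without DUSP5, DUSP7, SPRY1 and SPRED2, and the number was 0 in A375-BIR, where DUSP5 was then not tested, 3 in the A375 response (6 in the report), 5 between the lines in DMSO (8) and 2 in the difference of responses (5); of the genes tested there, DUSP4 in A375 and PHLDA1 in the difference lost their calls, and the other losses are of genes not tested. Without single libraries these numbers were 5 to 6, 8 and 4 to 5, and 6 to 7 between the lines under dabrafenib. RLE scaling and no filter left every one of the 5 numbers as reported. Sign changes were limited to values that were not called: SPRED2 between the lines in DMSO (0.00) was -0.0195 with no filter, -0.15 with the replicate block and -0.13 to 0.18 without single libraries, and SPRY2 in A375 was 0.0665 on unscaled totals. Without single libraries SPRED2 in A375 ranged from -1.32 to 0.27, SPRED1 in A375-BIR from -0.0535 to 0.23, DUSP7 in A375-BIR from -0.0886 to 0.86 and DUSP7 between the lines under dabrafenib from -0.27 to 0.68. Same-numbered replicates deviated from their group means with correlations of -0.29 to 0.24. A375-BIR DMSO replicate 2 correlated best with A375-BIR dabrafenib replicate 3 (0.33). These values showed no pairing by number, but deviations from means of 3 libraries cannot decide whether a culture or day was shared. With the number as a replicate block, SPRY2 between the lines in DMSO was not called (-0.64, adjusted p = 0.0502). Nor was PHLDA1 in the difference of responses (0.84, adjusted p = 0.0565). The 5 numbers of members called were then 1, 6, 6, 7 and 4. Unscaled totals took the median log2 change of all genes from 0.00 to 0.26 in A375, from 0.04 to 0.16 between the lines under dabrafenib, from 0.01 to 0.41 in DMSO and from 0.04 to -0.24 in the difference. All genes called in the A375-BIR response numbered 252, 106 by DESeq2, 125 with only its groups, 137 of those averaging at least 50 counts, and 106 to 558 without single libraries. Depth limits SPRY1, SPRED2 and DUSP7 most: single libraries held 0 to 20 counts of each, save 124 of SPRY1 in the A375 DMSO library.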

Other observations

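Of 7 tested receptors, from a list of those on whose signalling Sproutys or ERRFI1 act, 4 were higher and 2 lower in A375-BIR under dabrafenib, where 22.6% of all genes were called higher and 20.2% lower. EGFR stood at 3 counts over the 3 A375 dabrafenib libraries and 421 over the A375-BIR ones, a ratio of 77.6 (95% counting interval 26.4 to 378). The receptor kinase AXL was also higher in A375-BIR (5.09 ± 5.64 against 297.7 ± 29.02 CPM), and NGFR (273.2 ± 13.2 against 3.62 ± 1.09 CPM) and ERBB3 (187 ± 29.3 against 18.8 ± 0.60 CPM) were lower. For dabrafenib within A375-BIR edgeR called 0 of the 7, with 0 at an unadjusted p under 0.05 and a lowest adjusted p of 0.357.

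Among the components from RAS to ERK, MAP2K1, which encodes the kinase MEK1, had 2 counts in the A375 DMSO library against 112 in A375-BIR with DMSO, a ratio of 32.3 (95% counting interval 8.73 to 269.8). MAP2K2, which encodes MEK2, was lower in that comparison, at 44.5 ± 4.43 CPM in A375-BIR against 197.8 CPM (-2.14, edgeR adjusted p = 2.36e-09). DUSP8, a phosphatase of JNK and p38, had 1 count in the A375 DMSO library and 18 in A375 with dabrafenib, a ratio of 25.8 (95% counting interval 4.08 to 1076). Each of these differences rests on that single library of the other stamp, and the intervals cover counting error only. Between the lines under dabrafenib, MAP2K1 was higher in A375-BIR by less (log2 difference 1.18 ± 0.41, edgeR adjusted p = 0.0185). Its means there were 40.8 ± 14.3 against 16.2 ± 11.2 CPM, and the libraries overlapped. MAP2K2 was lower in A375-BIR under dabrafenib as well (-1.18 ± 0.23, adjusted p = 5.89e-05).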
